A study of Mus musculus with 2 samples.

Results

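The guide arms of the miR-181 family and of the miR-148/miR-152 family were read on microRNA arrays of unwounded mouse skin and unwounded mouse oral mucosa. The members were chosen by probe name, as mmu-miR-181a-5p, mmu-miR-181b-5p, mmu-miR-181c-5p, mmu-miR-181d-5p, mmu-miR-148a-3p, mmu-miR-148b-3p and mmu-miR-152-3p (mmu stands for mouse and is left out hereafter), so that 7 of the 1892 microRNA probes of the array entered, 4 of the first family and 3 of the second. One single-colour (Cy5) array was hybridized for each tissue, with 2 µg of total RNA pooled from 3 animals, and the mice were female Balb/c, 8 to 10 weeks old. No treatment, wound or genetic change was given for either group. Whether the pieces held epithelium alone is not settled by the sources, which name the samples both as tissue and as epithelium. Since each tissue is 1 pool on 1 array, neither has a replicate, and skin and oral mucosa could be compared in size but not by a test.

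A microRNA is cut from a hairpin precursor, and the arm that is loaded into an Argonaute protein, the guide, recognizes messenger RNAs mainly through its seed near the 5′ end. Members of a family share the seed and are therefore expected to share many targets. MiR-181a is best known from lymphocytes, where it sets the sensitivity of T cell receptor signalling, and the miR-181 family has also been tied to muscle differentiation. MiR-148a, miR-148b and miR-152 are known for repressing the DNA methyltransferase Dnmt1.

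The target sequences of the 4 miR-181 probes are shown because their likeness bears on how far the probes can be read apart. They are written 5′ to 3′ as the array files give them, with the seed (bases 2 to 8) in capitals.
miR-181a-5p: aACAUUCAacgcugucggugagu
miR-181b-5p: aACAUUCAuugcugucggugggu
miR-181c-5p: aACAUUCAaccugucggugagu
miR-181d-5p: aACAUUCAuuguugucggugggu
All 4 carried the seed ACAUUCA, and 0 of the other probes on the array did. Counting positions from 1 at the 5′ end, the only change from miR-181b-5p to miR-181d-5p was C12U. The sequences of miR-181a-5p and miR-181c-5p were also 1 edit apart, with miR-181c-5p the shorter at 22 bases against 23. From miR-181a-5p to miR-181b-5p the changes were A9U, C10U and A21G. Whether a probe also binds the closest relatives of its target was not measured on these arrays.

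The target sequences of the miR-148/miR-152 probes follow in the same form.
miR-148a-3p: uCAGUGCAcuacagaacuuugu
miR-148b-3p: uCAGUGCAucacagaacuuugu
miR-152-3p: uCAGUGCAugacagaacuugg
The seed CAGUGCA was held by these 3 probes and 0 others. The changes from miR-148a-3p to miR-148b-3p were C9U and U10C. MiR-152-3p, at 21 bases, lay 3 edits from miR-148b-3p and 4 from miR-148a-3p. Outside the families the nearest probe lay at least 7 edits from any of the 7 members. Of the 7 target sequences 6 were identical to the RefSeq mature sequence, and the RefSeq entry of miR-181b-5p was longer, at 24 bases against 23.

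The mature sequences were located from the RefSeq annotation of GRCm38.p6. MiR-181a-5p and miR-181b-5p each come from 2 genes, which lie in pairs. Mir181a-1 (chr1:137966468-137966490, plus strand) lies beside Mir181b-1 (chr1:137966650-137966673, plus strand). Mir181a-2 (chr2:38852741-38852763, plus strand) lies beside Mir181b-2 (chr2:38853845-38853868, plus strand), where the span of Nr6a1, an orphan nuclear receptor gene, and that of Nr6a1os cover both. The third pair is Mir181d (chr8:84178759-84178781, minus strand) with Mir181c (chr8:84178924-84178945, minus strand). An array probe for miR-181a-5p or miR-181b-5p reads both loci at once. The miR-148/miR-152 genes stand alone, Mir148a at chr6:51269829-51269850 (minus strand) within the span of Gm38821, Mir148b at chr15:103285185-103285206 (plus strand) within the span of Copz1, and Mir152 at chr11:96850439-96850459 (plus strand) within the span of Copz2. Copz1 and Copz2 encode related subunits of the COPI vesicle coat.

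Each probe was printed on 2 spots, and the signals given are scanner brightness before any background or scaling step. Detection required a mean over both spots that exceeded the average empty spot (16 on each array) by 3 SD, that is a signal above 59.9 in skin or 71.8 in oral mucosa. Differences are oral mucosa minus skin after Variance Stabilizing Normalization (VSN), on a scale that runs parallel to log2, and the SD beside them comes from the repeat spots, so it covers error within the arrays only. The size rule asked for a difference of 1 or more in either direction, which is 2-fold. Where 1 array did not detect a probe, it entered there with the lowest detected signal or its own, whichever was higher, and the fold is then a lower bound. In all, 562 microRNAs were detected on at least 1 array and their median difference was 0.00. Scanner signals of different probes are not compared, since probes bind with different strength, and in bulk RNA fewer cells of a type and less RNA per cell cannot be told apart.

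The 7 microRNAs chosen as epithelial markers, miR-203-3p, miR-205-5p and the miR-200 family, were detected on both arrays. Of the 5 mesenchymal ones, 4 were detected in skin and 5 in oral mucosa. Whether epithelium itself carries the latter was not measured.

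All 4 miR-181 guide arms read higher on the oral mucosa array, with VSN differences from 1.01 to 1.91 and a median of 1.15, and 4 of 4 passed the size rule. Over all detected microRNAs 13.7% passed it in this direction and 28.5% in either. MiR-181b-5p was undetected in skin and counts here by a lower bound. The 3 miR-181 members detected on both arrays had a median of 1.23, and 3 passed. Of all microRNAs detected on both arrays 11.9% passed toward oral mucosa. The 3 miR-148/miR-152 guide arms read close to each other on the 2 arrays or slightly higher in skin, with differences from -0.71 to -0.13 and a median of -0.67, and 0 of 3 passed the rule. Over all detected microRNAs 14.8% passed it toward skin. The size of the miR-181 differences depended on which of the repeat spots was read, as described below.

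**Figure D1:**
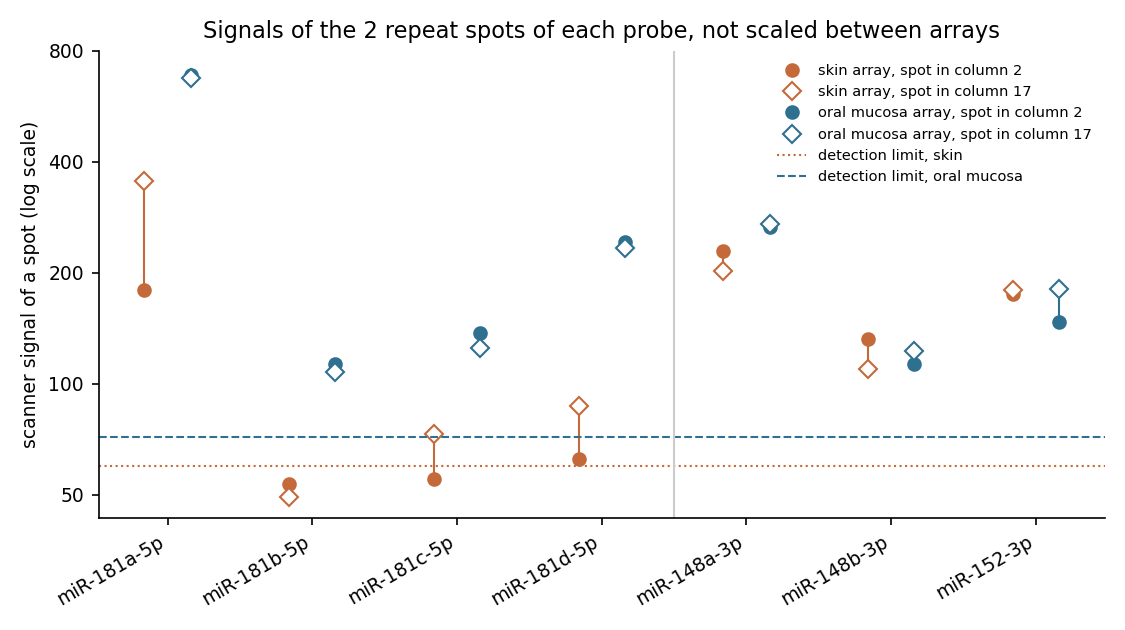
Scanner signal of both repeat spots of the 7 probes (log axis, not scaled between arrays), skin in orange and oral mucosa in blue, filled for the spot in array column 2 and open for the spot in column 17, with the detection limit of each array as a horizontal line. For each miR-181 probe both oral mucosa spots lie above both skin spots, and the 2 skin spots of miR-181a-5p lie far apart, at 179.9 and 354.

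MiR-181d-5p, a product of the chromosome 8 pair, showed the largest difference of the 7. Its spots read 62.3 and 87.2 in skin and 242 and 234 in oral mucosa, so that the oral mucosa spots lay well above the skin spots, of which the lower was close to the detection limit. The VSN difference was 1.91 (SD 0.71 from repeat spots), and 22 of the 562 detected microRNAs had a higher one. Its chromosome 8 neighbour miR-181c-5p read 55.2 and 73.1 in skin, where 1 of its spots fell below the limit, and 137 and 125 in oral mucosa. The spots did not overlap, and the difference was 1.23 (SD 0.73), with 50 microRNAs higher.

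MiR-181a-5p, the member known for its part in T cell signalling, read 179.9 and 354 on the skin array and 687 and 673 on the oral mucosa array. The oral mucosa spots were nearly equal and both lay above the skin spots. On the VSN scale the 2 skin spots differed by more than the arrays did. Spot by spot, the arrays differed by 1.72 in column 2 and by 0.53 in column 17. The difference was 1.01 (SD 0.82), just past the size rule, and 73 microRNAs were higher. MiR-181b-5p, made from the same pairs of precursors, was detected in oral mucosa only, at 113 and 108. Its skin spots read 53.5 and 49.4, below the limit. Set against the lowest signal detected in skin, the difference was 1.08 (SD 0.09 from the oral mucosa spots), at least 2.11-fold higher in oral mucosa on the VSN scale. This bound depended on the scaling and background step. With both spots it was lowest with centring on the 75th percentile, at 0.43 or at least 1.35-fold. Over all settings it was lowest, at 0.397, with array columns 1 and 2 left out before quantile normalization. For all 4 members the difference was larger than its repeat-spot SD. The measured differences of miR-181c-5p and miR-181a-5p, at 1.23 and 1.01, lay closer together than their SDs, and the place of miR-181b-5p in the order is not known because its value is a lower bound.

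In the miR-148/miR-152 family the signals of the arrays were much nearer. MiR-148a-3p read 229.6 and 202 in skin and 266 and 271 in oral mucosa. Its unscaled signal was thus higher in oral mucosa, but after VSN the difference was -0.13 (SD 0.16), within the repeat-spot error, and 311 microRNAs had a higher one. MiR-148b-3p read 132 and 109.9 in skin and 113 and 123 in oral mucosa. These spots overlapped before scaling and lay apart after it, with a difference of -0.67 (SD 0.31). MiR-152-3p read 175 and 179.97 in skin and 147 and 180.05 in oral mucosa, where its spots were the more uneven ones. Its difference was -0.71 (SD 0.29), so that miR-148b-3p and miR-152-3p were indistinguishable within their SDs.

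After VSN the repeat spots of the 2 arrays did not overlap for 7 of 7 members. The same held for 70.8% of all detected microRNAs, so this says little about the members.

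**Figure D2:**
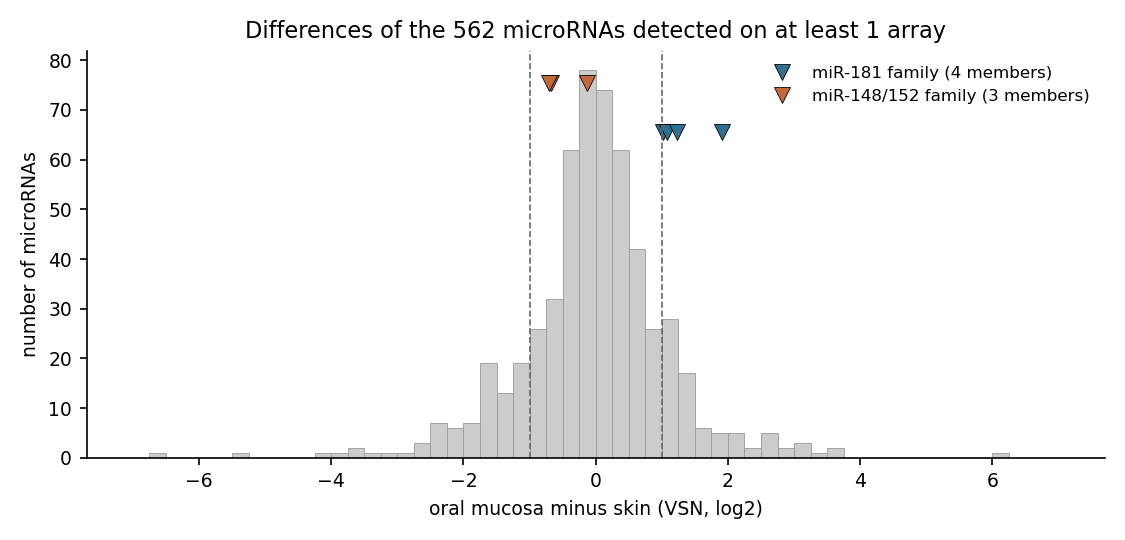
Number of microRNAs (vertical axis) by VSN log2 difference, oral mucosa minus skin (horizontal axis), over the 562 microRNAs detected on at least 1 array, with triangles for the members and dashed lines at the size rule of 1 in each direction. The miR-181 members lie between 1.01 and 1.91, to the right of the upper line, with miR-181b-5p placed at its lower bound. The miR-148/miR-152 members lie between -0.71 and -0.13, inside the lines.

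Probes were laid out on the array in the order of their names, which put the first spot of every member in array column 2, near the edge, and the second in column 17. The column 2 spots of the miR-148/miR-152 probes lie in rows 65 to 75, and those of the miR-181 probes in rows 95 to 102. On the skin array the spots of column 2 grew dimmer relative to their repeat spots toward the later rows. From row 85 on, a boundary set after the values were seen, the column 2 spot was dimmer than its repeat for 11 of 11 other probes detected on both arrays, with a median log2 ratio of -1.74. Nearer the miR-181 spots, in rows 90 to 107, it was -0.82 over 3 other probes. Before row 85 the column 2 spot was dimmer for 2 of 14, with a median of 0.20. On the oral mucosa array the medians were -0.10 from row 85 on and -0.05 before it. Among the miR-181 probes the skin spot in column 2 read 0.51 times its repeat for miR-181a-5p, 0.76 times for miR-181c-5p and 0.71 times for miR-181d-5p, whereas miR-181b-5p, undetected in skin, gave 1.08. On the oral mucosa array the same ratios ran from 1.02 to 1.10. For the miR-148/miR-152 probes the skin ratios were 0.97 to 1.20. Such ratios cannot tell whether the column 2 spots were dim or their repeats bright. Most miR-30 probes, with no spot in columns 1 and 2, also had uneven repeat spots on the skin array, as given below.

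**Figure D3:**
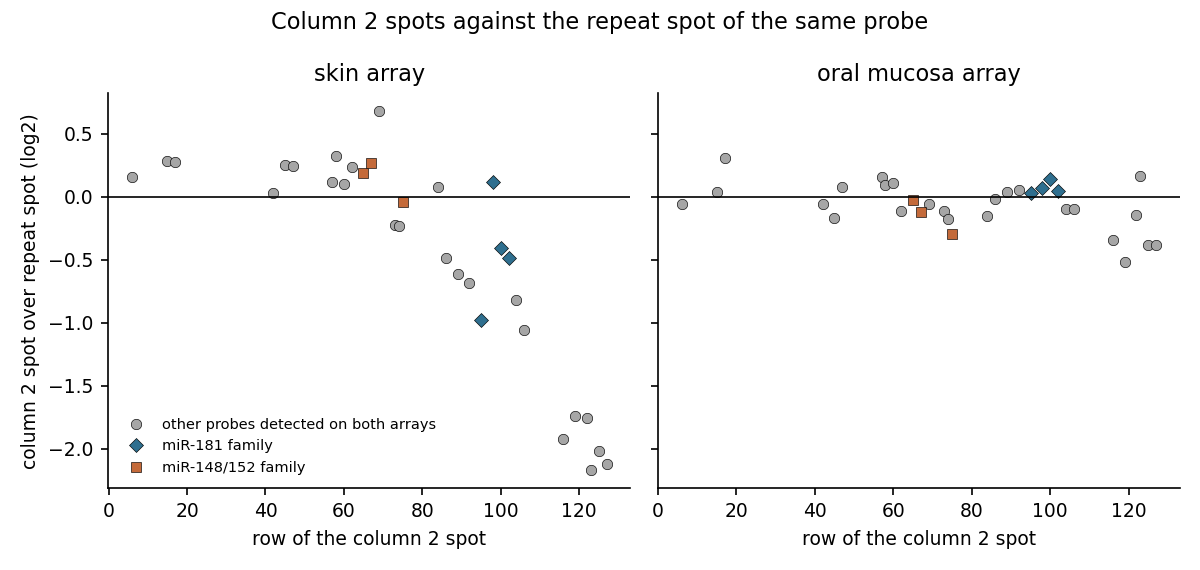
Log2 ratio of the column 2 spot to the repeat spot of the same probe (vertical axis) against the row of the column 2 spot (horizontal axis), for the skin array (left) and the oral mucosa array (right), with grey circles for other probes detected on both arrays, blue diamonds for miR-181 and orange squares for miR-148/miR-152. On the skin array 11 of 11 grey points from row 85 on lie below 0, as do 3 of the 4 miR-181 points, and on the oral mucosa array the miR-181 points lie just above 0.

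With columns 1 and 2 left out on both arrays, which leaves 1 spot for each member, the miR-181 median was 0.86 in place of 1.15. MiR-181d-5p was then at 1.48 and miR-181b-5p at 1.02, the latter against the lowest signal detected in skin. MiR-181a-5p was at 0.55 and miR-181c-5p at 0.71, both below the size rule. Thus 2 of 4 passed, where 13.4% of all detected microRNAs did so in this direction. The miR-148/miR-152 differences were then 0.01 for miR-148a-3p, -0.35 for miR-148b-3p and -0.53 for miR-152-3p, with 0 of 3 past the rule, against 15.2% of all detected microRNAs toward skin. Read on the remaining spots, the miR-181 probes were still above 0 in 4 of 4 cases, and the direction of miR-148a-3p was not settled. The median over all detected microRNAs was then 0.01, and with both spots 281 of the 562 lay above 0. Since binding of close relatives was not measured, the 4 probes may not be separate readings.

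The values also moved with the choice of scaling and background step. Under 7 other settings of scaling or background correction, the deposited processed values of each probe among them, the difference of miR-181d-5p ran from 1.17 to 1.91 and stayed past the rule. That of miR-181a-5p ran from 0.90 to 1.35, that of miR-181c-5p from 0.50 to 1.23 and the lower bound of miR-181b-5p from 0.43 to 1.07. Quantile normalization, centring and no scaling used signals with background left in, whereas VSN fits an offset to each array. From VSN to median centring miR-181a-5p went from 1.01 to 1.04. The dimmer miR-181b-5p went from 1.08 to 0.58, miR-181c-5p from 1.23 to 0.73 and miR-181d-5p from 1.91 to 1.36. The shares of scaling and background in these changes were not tested. The values of miR-148a-3p ran from -0.14 to 0.32 and changed sign, while those of miR-148b-3p (-0.67 to -0.036) and miR-152-3p (-0.71 to -0.12) stayed below 0. On the scale log2(value + 50) of the processed values, 1 of the 4 miR-181 members passed, miR-181d-5p, with miR-181a-5p just below the rule at 0.99. On that scale 7.83% of all detected microRNAs passed toward oral mucosa. Adding 50 makes differences smaller, most of all for dim probes. Before it, the processed values in skin and oral mucosa were 254 and 554 for miR-181a-5p and 15 and 49 for miR-181b-5p. They were 32 and 66 for miR-181c-5p and 43 and 159 for miR-181d-5p. Quantile normalization, which gives both arrays the same distribution, left miR-181a-5p at 1.09 and miR-181d-5p at 1.18 past the rule, where 7.47% of all detected microRNAs passed it toward oral mucosa. When columns 1 and 2 were also left out, 0 of 4 passed, with miR-181d-5p at 0.97, against a share of 7.49%.

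**Figure D4:**
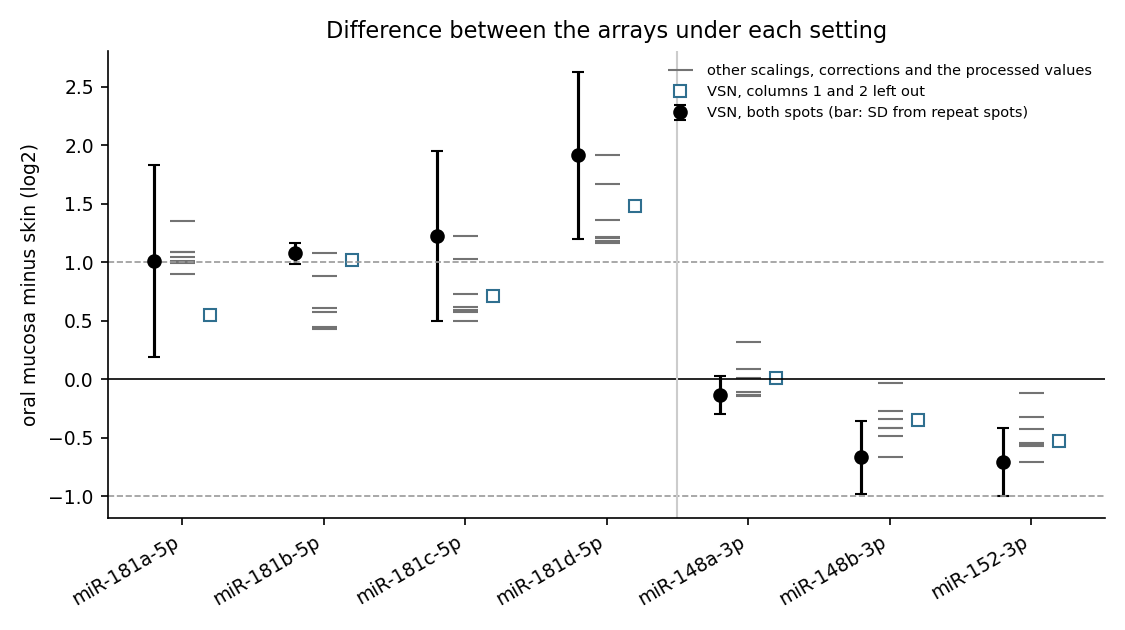
Log2 difference, oral mucosa minus skin (vertical axis), of the 7 members: black circles for VSN with both spots and bars for the repeat-spot SD, grey dashes for the 7 other settings of scaling or background correction, and open squares for VSN with columns 1 and 2 left out. The miR-181 values lie above 0 in each of these settings, from 0.43 to 1.91, and those of miR-148a-3p lie on both sides of 0.

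The precursors also give a second arm, which is usually degraded. The hairpin of miR-181d, the member with the largest difference, and that of miR-148a are shown to place the 2 arms, which stand in capitals in the RefSeq sequence of GRCm38.p6.
Mir181d: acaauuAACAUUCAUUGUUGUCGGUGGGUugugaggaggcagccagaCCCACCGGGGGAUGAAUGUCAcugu
Mir148a: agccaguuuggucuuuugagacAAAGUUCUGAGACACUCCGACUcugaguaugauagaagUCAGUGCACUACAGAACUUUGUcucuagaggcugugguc
The Mir181d hairpin spans 72 bases at chr8:84178716-84178787 and that of Mir148a 99 bases at chr6:51269812-51269910, both on the minus strand. The guide is the first arm in Mir181d and the second in Mir148a. Probes for the other arm of all precursors were on the array, 9 in all, and 0 of 9 were detected on either array. MiR-181d-3p read 35.8 in skin and 56.7 in oral mucosa, and miR-148a-5p read 40.9 and 51.6, each under the limit of its array. No difference of the second arms could therefore be measured at these signals.

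Some microRNAs of other cell types moved in the direction of miR-181. Since miR-181a is abundant in lymphocytes, the leukocyte list was set beside the family: 2 of its 6 microRNAs were detected, with summed scanner signals of 293 in skin and 602 in oral mucosa. These sums are not scaled between arrays, and 6 empty spots alone would give 218 and 311. MiR-150-5p, typical of mature lymphocytes, read 50.7 ± 6.89 (SD of the 2 repeat spots), below the limit, in skin and 248 ± 37.5 in oral mucosa, which lay 2.73 above the lowest signal detected in skin. MiR-146a-5p differed by 1.05 (SD 0.19). The defining miR-142-3p and miR-142-5p were below the limit on both arrays, as were miR-155-5p and miR-223-3p. Of the 5 mesenchymal microRNAs 5 passed the size rule toward oral mucosa with VSN, where 13.7% of all detected microRNAs did. Their differences ran from 1.01 to 2.17, and that of miR-143-3p, undetected in skin, is a lower bound at 2.02. Their median ran from 1.13 to 1.78 under the 7 other settings of scaling or background correction. Their signals summed to 516 in skin and 1871 in oral mucosa, where 5 empty spots would give 182 and 259. The red blood cell microRNA miR-451a had the largest difference toward oral mucosa of all detected microRNAs, 6.21 (SD 0.37), at 67.3 ± 7.34 in skin and 3056 ± 171 in oral mucosa. Endothelial miR-126a-3p, detected in oral mucosa only, lay 1.84 above the lowest signal detected in skin. Its oral mucosa spots were uneven, at 155 ± 51.0 (SD 0.70 on the VSN scale). The other endothelial microRNA, miR-126a-5p, was below the limit on both arrays, as was miR-144-3p of the red blood cell list. The epithelial list had a median difference of -0.48, with 1 of 7 past the rule in each direction, against 13.7% and 14.8% of all detected microRNAs. Its summed signals of 49225 and 48779 came mostly from miR-203-3p and miR-205-5p. Of the 4 skeletal muscle microRNAs 1 was detected in skin and 3 in oral mucosa, and 0 were called. The values of miR-133a-3p (0.71) and miR-133b-3p (0.53), undetected in skin, are lower bounds, so whether their differences reach 2-fold is not known. MiR-206-3p, detected on both arrays, was at -0.19 (SD 0.36). The part of these cell types in the miR-181 difference was not tested.

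Values of 2 other families with common seeds were set beside these. Of the 9 let-7 and miR-98 guide arms, all detected on both arrays, 0 passed the rule toward oral mucosa and 5 toward skin. Over all detected microRNAs 13.7% and 14.8% did. The differences ran from -2.01 (let-7e-5p) to 0.63 (let-7i-5p) with a median of -1.05. This median ran from -1.05 to -0.51 under the other scalings. All but miR-98-5p have a spot in columns 1 or 2, and with those columns left out the median was -1.10. The 5 miR-30 guide arms ran from -0.01 (miR-30d-5p) to 0.70 (miR-30b-5p) with a median of 0.60, and 0 passed. With both spots the miR-181 median of 1.15 stood above both and the miR-148/miR-152 median of -0.67 between them. The miR-30 probes have no spot in columns 1 and 2, yet the repeat spots of most were uneven on the skin array. MiR-30c-5p read 1450 ± 766 in skin and 2993 ± 107 in oral mucosa. The repeat-spot SDs of the miR-30 differences ran from 0.17 (miR-30a-5p) to 0.83 (miR-30c-5p). With columns 1 and 2 left out the miR-181 median was 0.86 and the miR-30 median 0.61. These orders could not be tested with the arrays at hand.

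Among the microRNAs detected on both arrays, those with the difference nearest to the miR-181 median were miR-3110-3p at 1.14, miR-328-3p at 1.16 and miR-297a-5p at 1.17. Nearest to the miR-148/miR-152 median were miR-125a-5p at -0.68, miR-669i at -0.64 and miR-99b-5p at -0.64. The repeat spots of miR-125a-5p disagreed widely, with an SD of 7.29. Likeness was measured as the distance between differences over 2 arrays, which many microRNAs share.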

How the data were processed

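MicroRNA levels were measured on 1 array (LC Sciences miRmouse) for each of unwounded skin and unwounded oral mucosa, each with RNA pooled from 3 animals. Raw tables deposited by the authors hold a Cy5 intensity (median and SD) for each spot, with no background subtraction or scaling between arrays. They also deposited 1 processed intensity per probe and array, in whole numbers from 0, whose background correction and scaling are not given in the sources used here.

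Each array holds 3968 spots, of which 184 are controls and 16 of these empty. The empty spots read 36.4 ± 7.84 (SD) for skin and 51.9 ± 6.65 for oral mucosa, and 446 and 510 probes were detected, 394 of them on both. Repeat spots were averaged. VSN, named in the study's methods, was written in Python 3.11.15 (numpy 2.4.6, scipy 1.17.1) as an arsinh transformation fitted by maximum likelihood with 90% of probes kept in each of 5 signal slices except the dimmest. It was started from 12 points, 10 of which reached the reported fit (offsets 37.9 and 46.3, scale ratio 1.37). A run on arrays simulated from that fit, without the uneven repeat spots of column 2, could not test how well VSN suits these arrays. Normexp (offset 50) was run with limma 3.58.1 in R 4.3.3. The regularized test of the study's methods was not used, since repeat spots share 1 pool.

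The genes named were the members, the other arms, the nearest microRNAs by difference, 2 comparison families and marker lists. The members and lists, the settings and the edge columns were chosen with earlier results of these data known. The leukocyte list was read through miR-142-3p and miR-142-5p, the array's names for the miR-142a arms, and miR-486a-5p of the red blood cell list had no probe of that name. Alternatives covered scaling, background, processed values, detection, single repeat spots, edge columns and the size threshold. Spots limit the precision of a value and the number of arrays that of a comparison.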

Additional observations from a re-analysis of the deposited data

How the results depend on the processing

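No paired analysis was possible because skin and oral mucosa were each hybridized once. Of the 7 members, 4 passed the size rule with VSN (miR-181b-5p by a bound), all toward oral mucosa, where 13.7% of detected microRNAs did. This count was 2 with quantile normalization (7.47% of detected microRNAs), median centring (8.36%), normexp followed by 75th percentile scaling over detected probes (7.65%) and columns 1 and 2 left out (13.4%). It was 1 with 75th percentile centring (6.41%), the authors' processed values (7.83%) and the second repeat spot only (12.9%), and 0 at a 4-fold threshold (3.74%) or with columns 1 and 2 left out before quantile normalization (7.49%). The last setting was added after seeing the data. The other settings gave 3 or 4 toward oral mucosa (11.9% to 23.1%), and the 1.5-fold threshold also 2 toward skin. The miR-181 median of 1.15 stayed above 0 throughout, from 0.56 with columns 1 and 2 left out before quantile normalization to 1.75 on the first repeat spots, which are those of column 2, against 0.70 on the second. MiR-181a-5p was 1.77 on the first and 0.48 on the second. The miR-148/miR-152 median of -0.67 was -0.34 with median centring, -0.036 with no scaling, -0.27 with normexp before percentile scaling, -0.35 with columns 1 and 2 left out and -0.21 when quantile normalization followed. It stayed below 0 in each.

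The count over all detected microRNAs was 160. It was 80 with quantile normalization, 85 with centring on the median or the 75th percentile, 102 with no scaling, 71 with normexp before percentile scaling, 87 with the processed values, 104 when detection on both arrays was required and 577 without a filter. It was 256 and 46 at 1.5-fold and 4-fold, and 85 with columns 1 and 2 left out before quantile normalization. The split toward oral mucosa and skin was 77 and 83 with VSN, 80 and 22 with no scaling, where the median difference was 0.40, and 43 and 28 with normexp before percentile scaling. The causes were not tested, except that thresholds and filters change counts by construction. Signal limits the values of miR-181b-5p, miR-181c-5p and miR-181d-5p, whose mean skin signals of 51.4, 64.15 and 74.8 lay near the detection limit of 59.9.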
